A study of Homo sapiens with 12 samples.

Results

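The 10 mRNAs described here are the subunits of respiratory complexes I and IV that human mitochondrial DNA encodes: MT-ND1, MT-ND2, MT-ND3, MT-ND4, MT-ND4L, MT-ND5 and MT-ND6 of complex I, and MT-CO1, MT-CO2 and MT-CO3 of complex IV. They were chosen by name and matched to the Ensembl identifiers of the count table. All 10 were found among its 48162 genes and passed the expression filter that left 15630 genes for testing. The table also holds the other 3 mitochondrially encoded mRNAs, MT-CYB of complex III and MT-ATP6 and MT-ATP8 of the ATP synthase, which are given beside them. Mitochondrial rRNAs and tRNAs are not analysed here.

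RNA was sequenced from T84, a widely used cell line from a human colon tumour whose cells form epithelial sheets. Cells had been grown to confluency, and their medium was exchanged for Hanks buffered saline, a salt solution without serum, in every library of the series. The 4 groups were saline of pH 6.0 for 6 h, of pH 7.4 for 6 h, of pH 6.0 for 3 h and of pH 7.4 for 3 h, with 3 libraries in each. T84 is a single tumour line, no group kept in growth medium is analysed here, and the labels do not say whether replicates were separate cultures. The p-values therefore reflect library-to-library spread alone, and that spread may be purely technical.

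Complex I takes electrons from NADH and complex IV passes electrons to oxygen, and both pump protons across the inner mitochondrial membrane. Each is assembled from a few subunits made inside the mitochondrion and many made from nuclear genes and imported. Mitochondrial DNA is copied by a dedicated RNA polymerase, POLRMT, into long transcripts of each strand, and most mRNAs are then released by cutting out the tRNAs between them. The strand rich in guanine, the heavy strand, is the template for 9 of the 10 mRNAs, and MT-ND6 is copied from the light strand. Levels of the mature mRNAs therefore depend on stability as well as on synthesis.

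The annotated ends of these genes show how compact the mitochondrial genome is. The sequences below are the last 24 bases of annotated GENCODE 29 transcripts (GRCh38), with the bases left for the stop codon in capitals. They are of the 3 mRNAs that were lower at pH 6.0 after 6 h and the 2 whose log2 fold change there was above 0. The ends of the mRNAs in these cells were not measured.
MT-ND1: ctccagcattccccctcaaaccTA
MT-ND2: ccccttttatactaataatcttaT
MT-ND5: ctaaccctactcctaatcacaTAA
MT-ND4: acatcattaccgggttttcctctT
MT-CO3: tctccatctattgatgagggtctT
The annotated MT-ND5 transcript stops at a whole stop codon, and whether the mature mRNA runs past it is not shown here. The other 4 end in T or TA, and in the mature mRNA the poly(A) tail completes the codon. MT-ND1, MT-ND2, MT-ND4 and MT-CO3 thus share this kind of end. The mRNAs shown were picked by their 6 h values, and a link between ends and values was not tested.

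MT-ND4L and MT-ND4 remain joined in a bicistronic mRNA, and their reading frames overlap by 7 bases, shown in capitals at the end of the upstream and the start of the downstream frame because reads across this junction belong to both genes.
MT-ND4L, end: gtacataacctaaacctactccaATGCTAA
MT-ND4, start: ATGCTAAaactaatcgtcccaacaattata
Although both frames lie on the same mRNA, MT-ND4L had only 4.74% of the counts of MT-ND4 and 22.3% of its RPKM, a value scaled by gene length and library total. How reads that overlap both genes were counted is not given in the sources used here, so the level of MT-ND4L is uncertain. The same holds for MT-ATP8, which shares 46 bases with MT-ATP6 and had 0.172% of its counts.

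The 10 mRNAs took a sizeable part of every library. In saline of pH 6.0 for 6 h they made up 6.05%, 6.37% and 6.28% of all counts, against 7.60%, 7.40% and 6.71% at pH 7.4 for 6 h. At 3 h their share was 8.01%, 6.36% and 7.48% at pH 6.0, against 7.21%, 6.78% and 9.06% at pH 7.4. The 6 h groups did not overlap and the 3 h groups did. As means these shares were 6.23% ± 0.168 at pH 6.0 and 7.24% ± 0.463 at pH 7.4 for 6 h, and 7.28% ± 0.846 at pH 6.0 and 7.68% ± 1.21 at pH 7.4 for 3 h (SD, n = 3 each). A share is relative to all other counts of its library, so it does not give an amount of RNA per cell.

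Per length, the complex IV mRNAs stood above all complex I mRNAs. Averaged over the 12 libraries, MT-CO1, the catalytic core subunit of complex IV, had 17184 RPKM. MT-CO2, which receives electrons from cytochrome c, had 13813 RPKM and MT-CO3 had 12762 RPKM. These were the 3 highest of all genes in the table.
The complex I mRNAs followed with 6389.7 RPKM for MT-ND3, 6114 RPKM for MT-ND4, 4856 RPKM for MT-ND1, 4196 RPKM for MT-ND2, 2952 RPKM for MT-ND6, 1949.6 RPKM for MT-ND5 and 1364 RPKM for MT-ND4L. MT-CO1 was 12.6-fold above MT-ND4L. Most neighbours in this order kept it in all 12 libraries. The exceptions were MT-CO2 above MT-CO3 in 10 libraries, MT-ND4 above MT-ND1 in 11, and MT-ND3 above MT-ND4 in only 7, so that last pair was not separated by the spread between libraries.

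**Figure D1:**
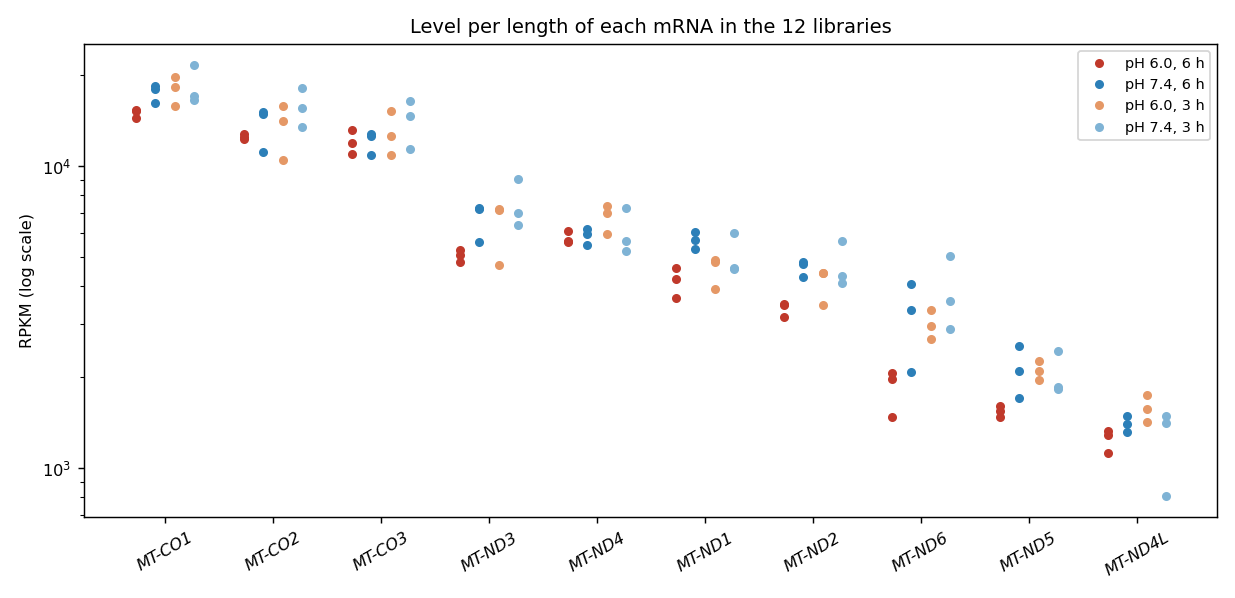
Level per length of each mRNA (RPKM, log axis) in the 12 libraries, 1 point per library, coloured by group. The 3 complex IV mRNAs lie above the complex I mRNAs, and MT-ND4L is lowest at 1364 RPKM on average.

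The first comparison asks what acid saline did to these mRNAs after 6 h. Of the 10, 3 complex I mRNAs were lower at pH 6.0 and none was higher (edgeR quasi-likelihood test, Benjamini-Hochberg adjusted p under 0.05). Of all genes tested, 47.0% were called in this comparison, 25.1% lower and 21.9% higher, so 3 of 10 lower is close to the background and is not a feature of these mRNAs. The median log2 fold change of the 10 was -0.27, beside -0.001 for all genes, and 8 of the 10 values were below 0. In 5 of the 10 the libraries of pH 6.0 all lay under those of pH 7.4 (MT-ND1, MT-ND2, MT-ND3, MT-ND5 and MT-CO1), where 29.7% of all genes did so, and none lay wholly above, where 26.9% of all genes did. Values below are CPM, counts scaled to the library total after TMM adjustment. Here and below, fell and rose mean lower and higher at pH 6.0 than at pH 7.4 for 6 h, not a change over time.

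**Figure D2:**
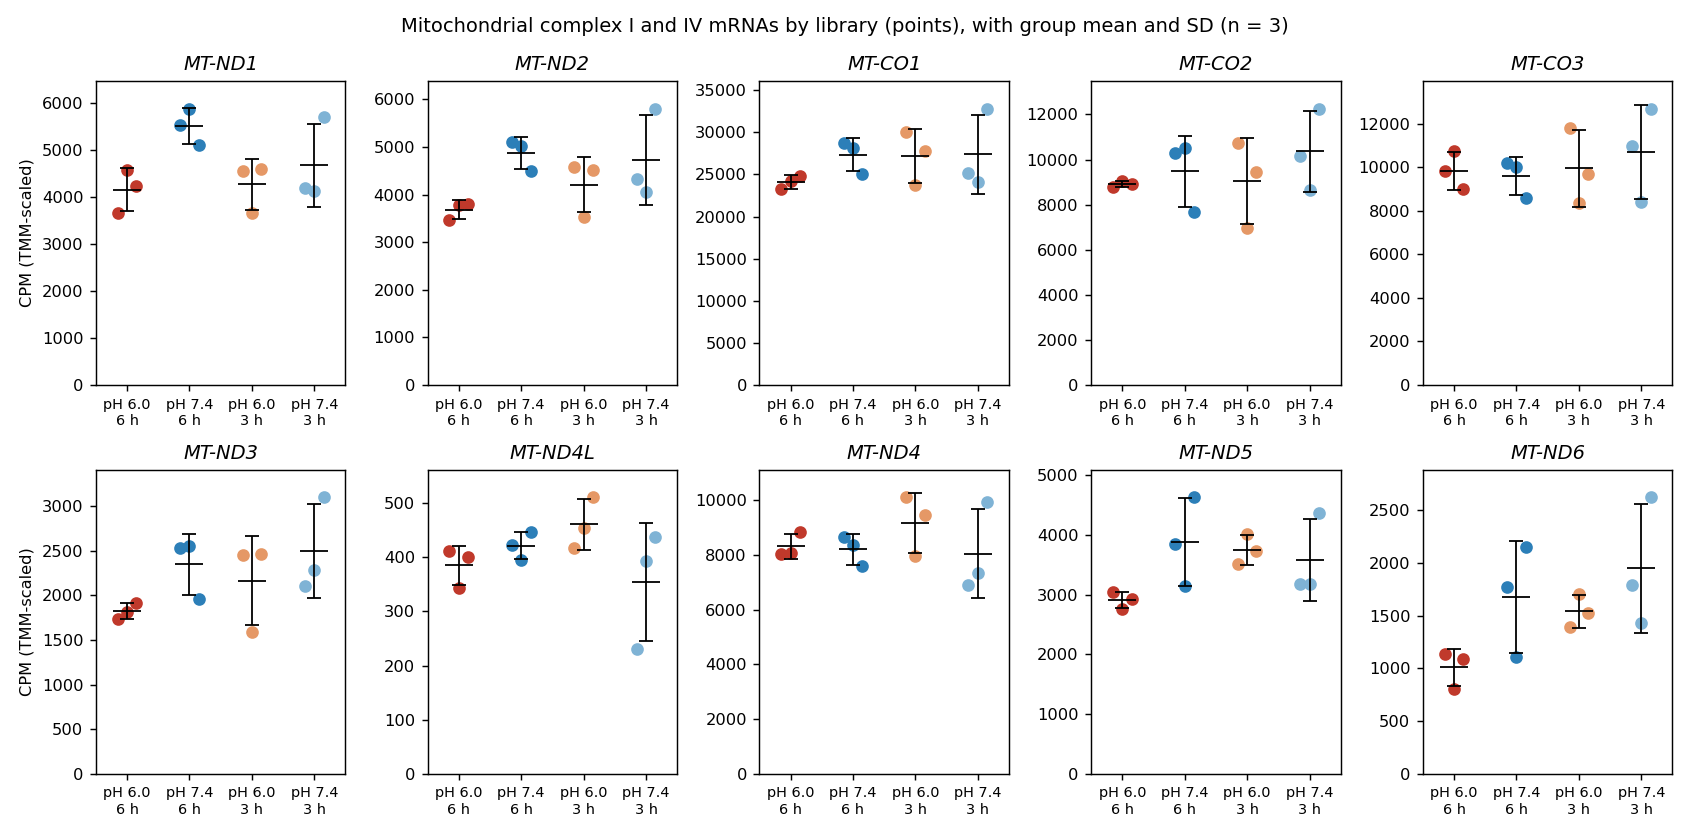
CPM (counts scaled to the TMM-adjusted library total) of each mRNA by library (points), with the group mean and SD (n = 3), in the order pH 6.0 and pH 7.4 for 6 h, then pH 6.0 and pH 7.4 for 3 h. The pH 6.0 points lie under the pH 7.4 points at 6 h for MT-ND1, MT-ND2, MT-CO1, MT-ND3 and MT-ND5, and no mRNA separates by pH at 3 h.

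MT-ND1 and MT-ND2 are core membrane subunits of complex I that take part in its proton path. MT-ND1 had 3659, 4569 and 4233 CPM at pH 6.0 for 6 h, against 5530.1, 5873 and 5110.2 CPM at pH 7.4. Every acid library was below every neutral one. Its log2 fold change was -0.41 ± 0.12 (SE, edgeR adjusted p = 0.00961), which is 1.33-fold lower at pH 6.0.
MT-ND2 had 3461, 3788 and 3799.9 CPM at pH 6.0 for 6 h, against 5102, 5022 and 4491 CPM at pH 7.4, again without overlap. It fell by 0.40 ± 0.12 on the log2 scale (edgeR adjusted p = 0.00913). Replicate 1 of pH 6.0 for 6 h bore on both calls: without it the values were -0.28 for MT-ND1 (edgeR adjusted p = 0.106) and -0.32 for MT-ND2 (edgeR adjusted p = 0.0782).

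MT-ND5, the largest mitochondrially encoded subunit and an antiporter-like part of the complex I membrane arm, had 3041, 2764 and 2934 CPM at pH 6.0 for 6 h, against 3859, 3151 and 4633 CPM at pH 7.4. The acid libraries were close together, while the neutral ones were spread, with replicate 2 only just above them. MT-ND5 fell by 0.41 ± 0.13 on the log2 scale (edgeR adjusted p = 0.0129). This call was the least stable of the 3: the edgeR adjusted p was 0.0918 without replicate 3 of pH 7.4 for 6 h, 0.0760 without replicate 2 of pH 6.0 for 6 h and 0.0504 without replicate 3 of that group.

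MT-ND6, the light-strand mRNA, had the most negative log2 fold change and the widest spread. It had 1134, 805 and 1088 CPM at pH 6.0 for 6 h, against 1774, 1106 and 2154 CPM at pH 7.4. Replicate 2 of pH 7.4 lay among the acid libraries, so the groups overlapped. Its log2 fold change was -0.73 ± 0.28 and missed the threshold (edgeR adjusted p = 0.0578, 95% interval -1.38 to -0.09). DESeq2 called it, with an adjusted p of 0.0322, and over the 21 alternative settings its adjusted p ran from 0.00401 to 0.196, under 0.05 in 7. The lowest was without replicate 2 of pH 7.4 for 6 h, where the log2 fold change was -0.96, and it was also called without replicate 3 of pH 7.4 for 3 h, at -0.70 (edgeR adjusted p = 0.0273).
Within its groups MT-ND6 had a log2 SD of 0.37, beside a median of 0.21 for the 10 mRNAs, 0.17 for all genes and 0.10 for the 500 most abundant other genes. Strand use in counting is not given in the sources used here. Without it, MT-ND6 reads cannot be told apart from antisense RNA of the opposite strand at that place.

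MT-ND3, a small subunit of the complex I core, had 1736, 1814 and 1918 CPM at pH 6.0 for 6 h, against 2531, 2559 and 1956 CPM at pH 7.4. The groups did not overlap, but the highest acid and the lowest neutral library nearly met. Its log2 fold change of -0.37 ± 0.18 missed the threshold (edgeR adjusted p = 0.105). Over the 21 alternative settings its adjusted p ran from 0.00372 to 0.323, under 0.05 in 3.

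MT-ND4 and MT-ND4L, the bicistronic pair, showed no detectable difference. MT-ND4, another antiporter-like subunit of complex I, had 8054, 8059.8 and 8834 CPM at pH 6.0 for 6 h, against 8675, 8363 and 7586 CPM at pH 7.4. Its log2 fold change was 0.02 ± 0.12 (edgeR adjusted p = 0.913), with a 95% interval of -0.26 to 0.30. That interval still holds small changes, such as the -0.13 of MT-ND4L below. It does not hold the -0.41 of MT-ND1, the -0.40 of MT-ND2 or the -0.41 of MT-ND5. The intervals of these called mRNAs overlap it, and their difference from MT-ND4 was not tested. MT-ND4L had 411, 344 and 401 CPM at pH 6.0 for 6 h, against 423, 396 and 447 CPM at pH 7.4, with overlap. Its fitted difference on the log2 scale was -0.13 ± 0.19 (edgeR adjusted p = 0.600, 95% interval -0.56 to 0.30).

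None of the 3 complex IV mRNAs passed the test at 6 h. MT-CO1 had 23245, 24223 and 24843 CPM at pH 6.0, against 28789, 28194 and 25081 CPM at pH 7.4. All acid libraries were lower, the nearest pair by a narrow margin, and the log2 fold change was -0.18 ± 0.12 (edgeR adjusted p = 0.213). Over the 21 alternative settings the adjusted p of MT-CO1 ran from 0.0178 to 0.538, under 0.05 in 1. MT-CO2 had 8769.9, 9036 and 8933 CPM at pH 6.0, against 10299, 10495 and 7662 CPM at pH 7.4, and replicate 3 of pH 7.4 was the lowest of all 6. The log2 fold change of MT-CO2 was -0.09 ± 0.15 (edgeR adjusted p = 0.660). MT-CO3 had 9804, 10719 and 8982 CPM at pH 6.0, against 10167, 10018 and 8586 CPM at pH 7.4. The groups lay over each other, with a log2 fold change of 0.04 ± 0.14 (edgeR adjusted p = 0.853) and a 95% interval of -0.28 to 0.35.

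Among the other 3 mitochondrial mRNAs, MT-CYB, the cytochrome b of complex III, fell. It averaged 5294 ± 234 CPM at pH 6.0 for 6 h and 6956 ± 374 CPM at pH 7.4 (SD, n = 3 each), with a log2 fold change of -0.39 ± 0.12 (edgeR adjusted p = 0.0116). Its adjusted p was 0.0521 without replicate 1 of pH 7.4 for 6 h and 0.0734 without replicate 3 of pH 6.0 for 6 h. MT-ATP6 had a log2 fold change of -0.10 ± 0.13 (edgeR adjusted p = 0.561) and the sparsely counted MT-ATP8 of -0.18 ± 0.55 (edgeR adjusted p = 0.821).
Along the heavy-strand transcript the called genes were not neighbours in one block: MT-ND1 and MT-ND2 come early, MT-ND5 and MT-CYB last, and the genes between them, from MT-CO1 through MT-ND4, gave no call.

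**Figure D3:**
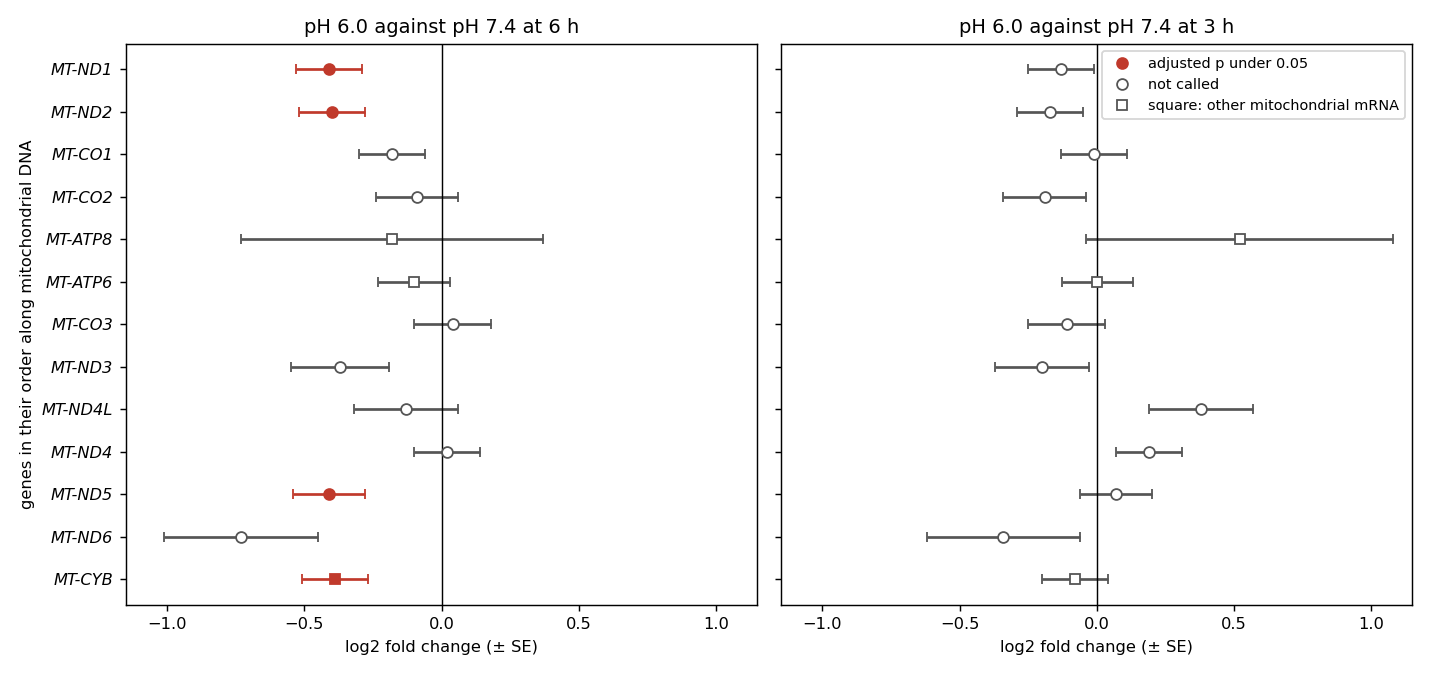
Log2 fold change (± SE) of pH 6.0 against pH 7.4 at 6 h (left) and 3 h (right) for the 13 mitochondrial mRNAs, top to bottom in their order along mitochondrial DNA, filled where the adjusted p is under 0.05, with squares for the mRNAs outside complexes I and IV. At 6 h MT-ND1, MT-ND2, MT-ND5 and MT-CYB are filled and lie near -0.4, and at 3 h nothing is filled.

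After 3 h in acid saline none of the 10 was called. Of all genes 18.8% were called there, 9.53% higher and 9.26% lower. No member had an unadjusted p under 0.05 by edgeR, DESeq2 called none, and none separated by pH, where 16.7% of all genes separated upward and 16.3% downward. The median log2 fold change of the 10 was -0.12, and values ran from -0.34 for MT-ND6 to 0.38 for MT-ND4L.
MT-ND1 had 4557, 3646 and 4597 CPM at pH 6.0 for 3 h, against 4197, 4119 and 5694 CPM at pH 7.4. MT-ND5 had 3509, 4012 and 3729 CPM at pH 6.0 for 3 h, against 3174, 3185 and 4376 CPM at pH 7.4. In both, replicate 3 of pH 7.4 was well above the other neutral libraries. The log2 fold changes were -0.13 ± 0.12 for MT-ND1 (edgeR adjusted p = 0.490) and 0.07 ± 0.13 for MT-ND5 (edgeR adjusted p = 0.761).

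That library stood apart for the whole group of mRNAs. Replicate 3 of pH 7.4 for 3 h lay above its group mean for 10 of 10, by a median of 0.31 on the log2 scale. Without it, MT-ND4 and MT-ND4L were called higher at pH 6.0 after 3 h, with log2 fold changes of 0.37 ± 0.11 (edgeR adjusted p = 0.0313) and 0.56 ± 0.17 (edgeR adjusted p = 0.0485), in place of 0.19 ± 0.12 and 0.38 ± 0.19 with all libraries. The 6 h calls of MT-ND1, MT-ND2 and MT-ND5 also held without it.

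Time in saline alone gave no call among the 10 at either pH. At pH 6.0, all 10 had a lower fitted level at 6 h than at 3 h, with a median log2 fold change of -0.18, but edgeR called none and 1 had an unadjusted p under 0.05, while 19.5% of all genes were called, 8.64% higher and 10.9% lower. The libraries of 3 mRNAs (MT-ND4L, MT-ND5 and MT-ND6) separated with 6 h lower, where 19.6% of all genes did. The 1 with the small p was MT-ND5, whose 6 h libraries, given above, all lay under its 3 h libraries. MT-ND5 had a log2 fold change of -0.36 ± 0.13 (edgeR adjusted p = 0.0544), and DESeq2 called it, with an adjusted p of 0.0332.
At pH 7.4, 5 values were above and 5 below 0 for 6 h against 3 h, with a median of 0.01. EdgeR called none, with none under an unadjusted p of 0.05, DESeq2 called none, and 31.6% of all genes were called, 17.2% higher and 14.4% lower. None of the 10 separated by time at pH 7.4, where 22.7% of all genes separated upward and 20.7% downward. The pH and time comparisons share libraries, so their values are not independent of each other.

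The pH effect at 6 h was compared with that at 3 h by an interaction term. EdgeR called none of the 10 and 1 had an unadjusted p under 0.05, where 29.4% of all genes were called, 13.1% with a positive and 16.3% with a negative term. That was again MT-ND5, with -0.48 ± 0.18 (edgeR adjusted p = 0.0540, DESeq2 adjusted p = 0.0291). For MT-ND1 and MT-ND2, a call at 6 h and none at 3 h therefore does not show that the pH effect differed between the times.

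Ratios between the mRNAs within a library do not depend on how libraries are scaled. Of the 45 pairs, 15 had ratios that did not overlap between the pH groups at 6 h, 9 at 3 h, and 6 separated the same way at both times. The pairs are made from only 10 mRNAs and are not independent, and ratios of other genes were not computed. Of single genes, 26.9% separated upward and 29.7% downward at 6 h, and 16.7% and 16.3% at 3 h. The counts of separated pairs are therefore not a feature of these mRNAs. The 6 pairs separated at both times were looked at after their values were seen and carry no test. MT-ND4 was in 4 of them.
The count of MT-ND2 over that of MT-ND4 was 0.430 to 0.470 at pH 6.0 for 6 h, against 0.588 to 0.600 at pH 7.4. At 3 h it was 0.443 to 0.479 at pH 6.0, against 0.552 to 0.626 at pH 7.4. The ratio of MT-ND2 to MT-ND4 was thus lower in all 6 acid libraries than in any neutral library.
The ratio of MT-ND1 to MT-ND4 was lower in acid within each time, at 0.454 to 0.567 for pH 6.0 and 0.637 to 0.702 for pH 7.4 at 6 h, and at 0.451 to 0.486 for pH 6.0 and 0.562 to 0.609 for pH 7.4 at 3 h. In the ratio of MT-ND4 to MT-CO1 the acid libraries were the higher ones, at 0.333 to 0.356 for pH 6.0 and 0.297 to 0.302 for pH 7.4 at 6 h, and at 0.335 to 0.341 for pH 6.0 and 0.273 to 0.304 for pH 7.4 at 3 h. The remaining separated pairs were MT-ND3 over MT-ND4, MT-ND1 over MT-CO1 and MT-ND2 over MT-CO1, all lower in acid.

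**Figure D4:**
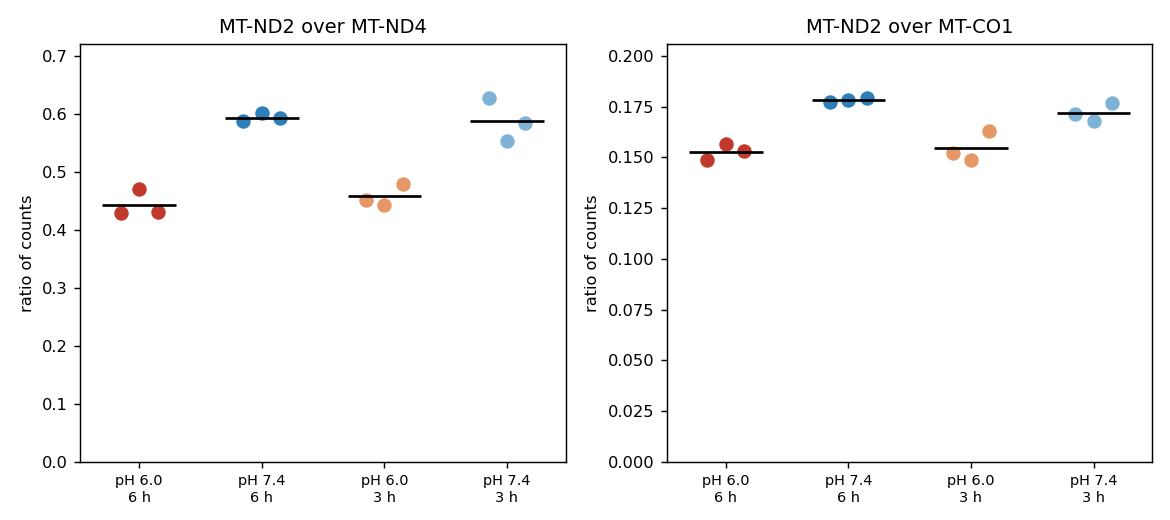
Ratio of the counts of MT-ND2 to MT-ND4 (left) and of MT-ND2 to MT-CO1 (right) in each library (points), with the group mean (line). Left, every pH 6.0 library is at or under 0.479 and every pH 7.4 library at or above 0.552.

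By complex, the summed counts of the 7 complex I mRNAs over those of the 3 complex IV mRNAs were 0.520 ± 0.0203 at pH 6.0 and 0.583 ± 0.0494 at pH 7.4 for 6 h, and 0.557 ± 0.0385 at pH 6.0 and 0.532 ± 0.0366 at pH 7.4 for 3 h (SD, n = 3 each). By strand, MT-ND6 had 1.58% ± 0.308 of the counts of the 9 heavy-strand mRNAs at pH 6.0 and 2.38% ± 0.896 at pH 7.4 for 6 h, and 2.24% ± 0.535 at pH 6.0 and 2.65% ± 0.361 at pH 7.4 for 3 h (SD, n = 3 each). The 3 h groups overlapped in the first ratio and in the second, and the 6 h groups overlapped in the second. In the first, the 6 h groups met, at a highest acid value and a lowest neutral value of 0.543.

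The nuclear genes for subunits of the same complexes were mostly higher in acid at 6 h, where 21.9% of all genes were called higher. Of 37 nuclear complex I subunit genes tested, 22 were higher and 1 lower at pH 6.0, with a median log2 fold change of 0.50, and of 12 nuclear complex IV subunit genes 7 were higher and 1 lower, with a median of 0.64. NDUFB10, a membrane-arm subunit of complex I, averaged 52.2 ± 2.46 CPM at pH 6.0 and 29.5 ± 5.08 CPM at pH 7.4 (SD, n = 3 each), a log2 fold change of 0.82 ± 0.14 (edgeR adjusted p = 6.34e-05). COX7B, a small complex IV subunit, averaged 141 ± 5.30 CPM at pH 6.0 and 66.5 ± 13.2 CPM at pH 7.4 (SD, n = 3 each), a log2 fold change of 1.08 ± 0.15 (edgeR adjusted p = 2.60e-05).
NDUFB5 rose by 0.54 ± 0.09 (edgeR adjusted p = 3.96e-05) and COX5A by 0.70 ± 0.12 (edgeR adjusted p = 0.000100) on the log2 scale. The members called lower were NDUFA11, at -0.81, and COX7A1, the muscle form of its subunit, at -1.54, and neither call held in every alternative. Both were sparsely counted. NDUFA11 had 1.49, 1.72 and 1.16 CPM at pH 6.0 for 6 h, against 3.55, 2.20 and 2.01 CPM at pH 7.4. COX7A1 had only 0.756, 0.698 and 1.46 CPM at pH 7.4 for 6 h. With a trend in gene length removed, 15 complex I and 5 complex IV subunit genes were called higher, and without replicate 3 of pH 7.4 for 6 h the counts were also 15 and 5.
At 3 h, 0 of the 37 complex I subunit genes were higher and 1 was lower, with a median of -0.19, and none of the 12 complex IV subunit genes was called by edgeR, with a median of -0.22 and no unadjusted p under 0.05. Of all genes, 9.53% were called higher and 9.26% lower there. Between 6 h and 3 h at pH 7.4, 16 of the 37 and 7 of the 12 were called lower and none higher, with medians of -0.41 and -0.56, where 14.4% of all genes were called lower. At pH 6.0, 6 of the 37 and 1 of the 12 were called higher at 6 h than at 3 h and none lower, with medians of 0.28 and 0.31, where 8.64% of all genes were called higher. Among those lower over time at pH 7.4 were NDUFB10 at -0.73, COX7B at -0.63, COX5A at -0.56 and NDUFB5 at -0.30. Over time at pH 6.0, COX7B at 0.49 and NDUFB5 at 0.28 were called higher, and NDUFB10 and COX5A were not called. The pH 7.4 comparison shares its 6 h libraries with the pH comparison.

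**Figure D5:**
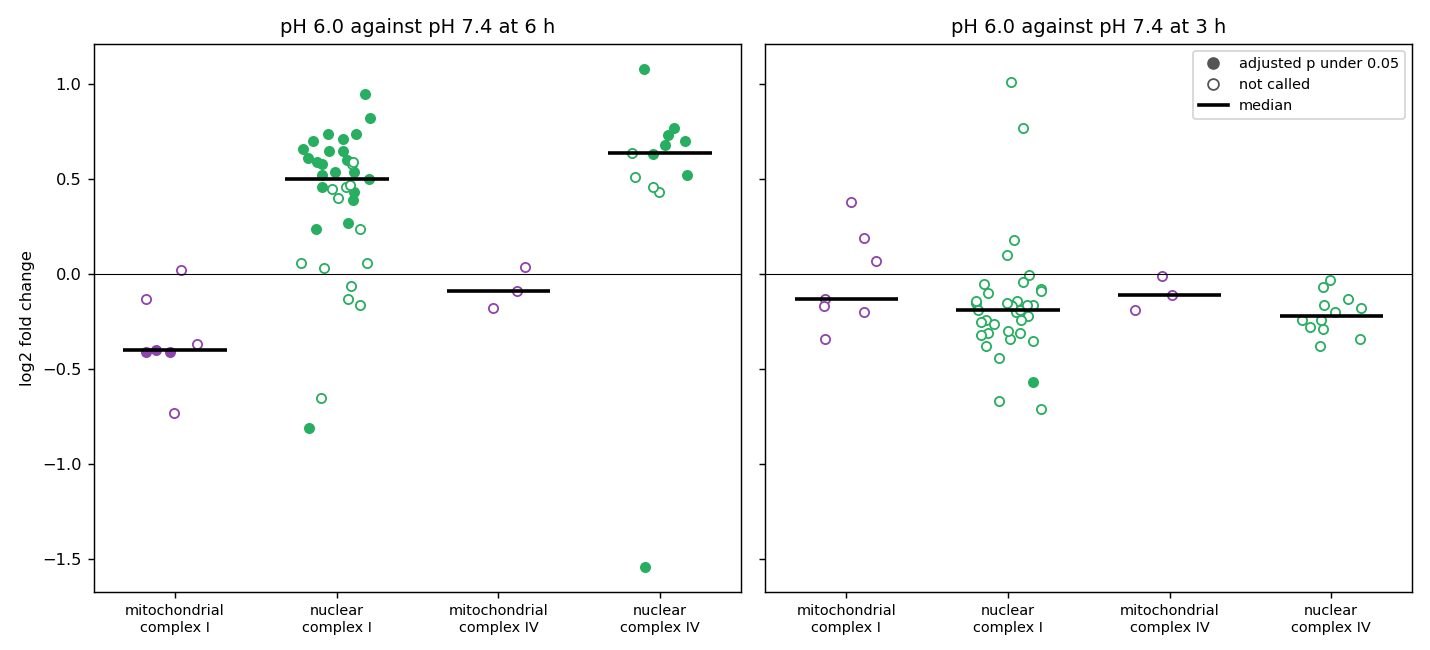
Log2 fold change of pH 6.0 against pH 7.4 at 6 h (left) and 3 h (right) for mitochondrially and nuclear-encoded subunit genes of complexes I and IV (points, filled where the adjusted p is under 0.05), with the median of each set (line). At 6 h the medians of the nuclear sets are 0.50 and 0.64, above the mitochondrial ones.

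The balance between mitochondrial and nuclear subunit mRNAs differed between the 6 h groups. Counts of the mitochondrial complex I mRNAs were 12.2 to 13.6 times those of the nuclear complex I subunit genes at pH 6.0 for 6 h, against 19.2 to 24.2 times at pH 7.4. For complex IV the ratio was 40.8 to 42.5 at pH 6.0 for 6 h, against 63.4 to 85.0 at pH 7.4. Neither pair of groups overlapped. At 3 h the complex I ratio was 16.2 to 18.6 at pH 6.0 and 12.8 to 20.3 at pH 7.4, and the complex IV ratio was 52.3 to 62.1 at pH 6.0 and 43.1 to 65.3 at pH 7.4, with the acid values inside the neutral range.

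Genes that make or tend mitochondrial RNA were mixed at 6 h, where 25.1% of all genes were called lower and 21.9% higher. TFAM, which packages mitochondrial DNA and starts its transcription, and POLRMT, both looked at for their role whatever their result, had log2 fold changes of 0.13 ± 0.08 (edgeR adjusted p = 0.172) and 0.13 ± 0.09 (edgeR adjusted p = 0.275). TFAM was called higher with the length trend removed, at 0.31 (edgeR adjusted p = 0.000957), and without replicate 2 of pH 6.0 for 6 h, at 0.22 (edgeR adjusted p = 0.0389). Of 9 transcription genes, 3 were lower and none higher, a share lower near that of all genes, among them TFB2M, the initiation factor that helps POLRMT open the promoter. TFB2M fell by 0.86 ± 0.14 on the log2 scale (edgeR adjusted p = 2.09e-05), or 1.81-fold.
Of 10 replication genes, 3 were lower and 1 was higher. TWNK, the helicase of mitochondrial DNA, fell by 1.39 ± 0.11 (edgeR adjusted p = 1.05e-09), and SSBP1, which binds single-stranded mitochondrial DNA, rose by 0.78 ± 0.13 (edgeR adjusted p = 0.000109). From 3 h to 6 h at pH 7.4, SSBP1 had a log2 fold change of -0.51 (edgeR adjusted p = 0.00727). TWNK was at 0.14 there (edgeR adjusted p = 0.314). At pH 6.0 the time values were 0.27 for SSBP1 (edgeR adjusted p = 0.153) and -0.81 for TWNK (edgeR adjusted p = 1.53e-05). Of 22 genes of RNA processing and stability tested, 6 were higher and 6 lower. LRPPRC, which stabilises mitochondrial mRNAs, rose by 0.32 ± 0.08 (edgeR adjusted p = 0.00171). TRMT10C, a subunit of the enzyme that cuts tRNAs out at their 5′ ends, fell by 1.17 ± 0.14 (edgeR adjusted p = 3.35e-07), and MTPAP, the mitochondrial poly(A) polymerase, fell by 0.60 ± 0.10 (edgeR adjusted p = 2.89e-05). For pH at 3 h, 3 of the 9 transcription genes were lower and none higher, where 9.26% of all genes were lower and 9.53% higher. Over the alternatives, 0 to 4 were lower. Of the replication genes 1 was lower and 1 higher there, and of the processing genes 5 lower and 1 higher. Called lower at 3 h were TFB2M at -0.45, TWNK at -0.44, TRMT10C at -0.55 and MTPAP at -0.28. LRPPRC was called higher at 0.23, and SSBP1 was not called.

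Of 8 regulators of mitochondrial biogenesis, 5 were lower and none higher at 6 h, beside the 25.1% lower and 21.9% higher of all genes, which are also the background of the counts that follow. With the length trend removed, 3 regulators were lower and 1 was higher. Without replicate 2 or without replicate 3 of pH 6.0 for 6 h, 4 were lower. PPRC1, a coactivator related to PGC-1alpha, fell by 0.81 ± 0.10 (edgeR adjusted p = 1.26e-06), and NRF1, a factor that acts on many nuclear genes of mitochondrial proteins, fell by 0.42 ± 0.10 (edgeR adjusted p = 0.00201). Among assembly factors, 7 of 17 were higher and 1 lower for complex I, and 5 of 19 higher and 3 lower for complex IV. COA3, which stabilises newly made MT-CO1 protein, rose by 0.76 ± 0.12 (edgeR adjusted p = 1.28e-05), while COX19, a copper-delivery factor, fell by 1.20 ± 0.09 (edgeR adjusted p = 1.71e-10). From 3 h to 6 h at pH 7.4, COA3 had a log2 fold change of -0.81 (edgeR adjusted p = 1.57e-05). That of PPRC1 was 0.40 (edgeR adjusted p = 0.00466) and that of COX19 0.13 (edgeR adjusted p = 0.239). At pH 6.0 the time values were 0.23 for COA3 (edgeR adjusted p = 0.170) and -0.43 for PPRC1 (edgeR adjusted p = 0.00583). COX19 was at -0.29 there (edgeR adjusted p = 0.0228). NRF1 was called over time at neither pH. For pH at 3 h, COX19 had a log2 fold change of -0.78 (edgeR adjusted p = 1.01e-06). COA3, PPRC1 and NRF1 were not called there. Of 13 translation factors, 4 were higher and 2 lower.

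The nuclear genes whose pattern over the 12 libraries was nearest to the mean of the 10 mRNAs, by root mean square difference of centred log2 CPM, were SLC35E1 at 0.09 and SCAF1, MVP, FAM76A and FUT3 at 0.10 each. The 10 mRNAs themselves lay between 0.06 for MT-CO1 and 0.36 for MT-ND6 from their own mean, which each of them helps to form, and the median gene tested lay at 0.32. The nuclear genes were picked as the nearest. This distance can also be small for a gene that varies little, so it does not show a shared pattern.

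Reads from nuclear copies of mitochondrial DNA could add to these values. The table names 402 such copies, which took 0.429% of the counts of copies and mitochondrial mRNAs together. Only 3 had a mean count of at least 100: MTND2P28, 98.4% identical to MT-ND2 and with 0.556% of its counts, MTCO1P12, 98.7% identical to MT-CO1 and with 0.134% of its counts, and MTATP6P1, 98.5% identical to MT-ATP6 and with 4.72% of its counts. None of these 3 was called for pH at 6 h by edgeR. Reads that fit a copy and its parent equally well may have been dropped or assigned to either.

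Across the series, libraries held 13912532 to 24331032 counts, and no pair of libraries of a group agreed within sampling noise. All 10 epithelial markers, such as KRT8 and EPCAM, were above 1 CPM in every group. Summed fibroblast markers were at 1.49 to 2.67 CPM at pH 6.0 and 1.03 to 23.8 CPM at pH 7.4 for 6 h, and 1.87 to 2.03 CPM at pH 6.0 and 1.74 to 2.75 CPM at pH 7.4 for 3 h. The 23.8 CPM were in replicate 2 of pH 7.4 for 6 h, and without that library MT-ND1, MT-ND2 and MT-ND5 were still called lower at 6 h. Summed leukocyte markers were at 8.14 to 12.3 CPM and endothelial markers at or under 1.37 CPM in every library. With scaling from genes not encoded by mitochondrial DNA the same 3 of the 10 were called.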

How the data were processed

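RNA of 12 T84 libraries in 4 groups of 3 was analysed. Per the submitters' processing notes, STAR, CASAVA and the hg19 build were used. Tool versions, annotation, counter and strand use: not given in the sources used here. The authors deposited raw counts per Ensembl gene and RPKM made from them. A single length per gene rebuilt 100.0% of the deposited RPKM values within a relative tolerance of 1e-06. RPKM was used only to compare levels between genes. Symbols and sequences came from GENCODE 29 and names tables. The order of the genes along mitochondrial DNA and the chromosome of each gene also came from GENCODE 29. No coordinates are printed because the builds differ.

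Counts were tested with edgeR 4.0.16 in R 4.3.3 (TMM factors, default expression filter, robust quasi-likelihood F test, a joint fit of the 4 groups, 8 residual degrees of freedom, Benjamini-Hochberg over 15630 genes). Intervals are the estimate ± its SE times the t quantile. DESeq2 1.42.0, other scalings, filters, fits restricted to a contrast's own groups, a replicate-number block, a length trend per library (spline with 5 degrees of freedom) and each library left out in turn were alternatives. The procedure was tested on simulated counts. The members and gene lists were chosen with earlier results of these data known. Of each nuclear list the rule named up to 3 higher and 3 lower genes by p at 6 h. The text leaves out part of these, and TFAM and POLRMT are outside the rule.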

Additional observations from a re-analysis of the deposited data

Results flagged for a closer look

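EdgeR's interaction test called none of the 13 mitochondrial mRNAs for a difference between the pH effects at 6 h and 3 h, with 1 of the 10 of complexes I and IV at an unadjusted p under 0.05, while DESeq2 called MT-ND5 (adjusted p = 0.0291). Of all genes, 29.4% were called by edgeR. The nuclear genes below were called too, but they were named by their p for pH at 6 h, which the interaction contains, so these values only describe them. The difference of log2 fold changes (6 h minus 3 h) was above 0 for COX7B at 1.12, NDUFB10 at 1.07, COA3 at 1.04, COX5A at 0.83, SSBP1 at 0.78 and NDUFB5 at 0.58. It was below 0 for TWNK at -0.96, PPRC1 at -0.83, TRMT10C at -0.62 and COX19 at -0.42. The call of COX19 was lost without replicate 3 of pH 6.0 for 3 h, at -0.35 (edgeR adjusted p = 0.0524). That of TRMT10C was lost without replicate 3 of pH 7.4 for 3 h, replicate 2 of pH 6.0 for 6 h or replicate 3 of pH 6.0 for 6 h, at -0.53, -0.54 and -0.55 (edgeR adjusted p = 0.0532, 0.0565 and 0.0501).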

How the results depend on the processing

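Over 21 alternatives the 10 mRNAs gave 210 values for pH at 6 h, of which 194 kept their call, 5 lost and 11 gained one, and no called value changed sign. The number called there was 5 with the length trend removed and 1 to 4 with a library left out. For pH at 3 h it was 0 to 2 with a library left out. For 6 h against 3 h at pH 6.0 it was 1 with DESeq2, with total counts alone (where the median of all genes was -0.10) and with no filter, 2 in a fit of only the groups compared, and 0 to 2 with a library left out, and at pH 7.4 it was 1 with no filter and with the length trend removed, and 0 to 1 with a library left out. For the difference between the pH effects it was 1 with DESeq2, with total counts alone and with no filter, and 0 to 1 with a library left out. Same-numbered libraries mostly did not deviate together (correlations from -0.127 to 0.226, over 0.1 in 2 of 18). The highest correlation of differently numbered libraries was 0.156. The labels do not say whether equal numbers mark a shared culture or day, and these correlations cannot settle it. With the replicate number as a block, 4 were called for pH at 6 h, 2 for time at pH 6.0 and 1 for the difference between pH effects. The cause of these shifts was not tested.

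Relative to counts of genes not encoded by mitochondrial DNA, the 10 mRNAs stood at 6.72% for pH 6.0 and 7.91% for pH 7.4 at 6 h. In RPKM, which divides by length, MT-ND6 was 3.05% and 4.62% of the heavy-strand mRNAs at pH 6.0 and pH 7.4 for 6 h, and 4.39% and 5.06% for 3 h, and the ratio of complex I to complex IV mRNAs was 0.583 and 0.687 for 6 h, and 0.647 and 0.630 for 3 h, in the same order. The counts of nuclear subunit, transcription and biogenesis genes under each alternative were added after seeing the data: at 6 h, 15 to 24 complex I and 5 to 10 complex IV subunit genes were called higher. Of the transcription genes, 3 to 4 were called lower and 0 to 1 higher. Of the biogenesis regulators, 3 to 5 were called lower and 0 to 1 higher. With 3 libraries a group, changes of the size seen here pass or miss the threshold by the spread of single libraries, and a p above it does not show equal levels.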
